A study of Mus musculus with 16 samples.

Results

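Of the 12369 genes tested in whole mouse lung, 10 are classical genes of the alveolar type 1 cell: Ager, Hopx, Aqp5, Pdpn, Cav1, Cldn18, Clic5, Rtkn2, Akap5 and Npnt. They were taken by name as genes known to mark this cell type, and each was read from its probe set with the highest mean over the 16 arrays. All 10 had a probe set, and all 10 passed the filter on low signals. The samples were total RNA of whole lungs of female BALB/c mice, an inbred strain, hybridised to 1-colour Affymetrix mouse arrays. The study asks whether pregnancy changes the lung's slight response to particles that are held to be inert. The 4 groups of 4 arrays were non-pregnant mice given PBS, non-pregnant mice given titanium dioxide (TiO2), mice at gestation day 14 given PBS, and mice at gestation day 14 given TiO2. TiO2 was 50 ug of respirable-size particles, baked against endotoxin and suspended in PBS, and it was given once into the nose under light halothane anaesthesia. The controls received PBS the same way, so all 4 groups share the anaesthesia and the fluid. RNA was taken 19 hours after exposure. The labels give no age for the mice.

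The alveolar type 1 cell is the thin, flat epithelial cell that covers nearly all of the gas exchange surface of the lung. It lies on a basement membrane shared with the capillary endothelium, is sealed to its neighbours by tight junctions, and carries water channels and many caveolae. It can arise from the cuboidal alveolar type 2 cell, which makes surfactant. Its genes are therefore read as signs of the state of the barrier, and some of them, Cav1 and Pdpn among them, are also expressed in endothelium.

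Values are log2(intensity + 16) after quantile normalization, and a difference of 1 is a doubling. Pearson correlations between arrays over the 12369 genes tested lay between 0.939 and 0.991 within a group and between 0.936 and 0.988 across groups. The labels of non-pregnant PBS replicate 2 conflict: the source name calls the mouse pregnant and the gestation field calls it non-pregnant. It was kept as non-pregnant, which gives the 4 arrays per group that the design states. Another 3 arrays stood apart in tissue content. The mean of the thymus list was 8.63 and 8.82 in non-pregnant PBS replicates 3 and 4, against 5.83 to 6.89 on the other 14 arrays. In pregnant TiO2 replicate 2 the squamous epithelium list averaged 4.93, against 8.45 to 9.80 elsewhere, and the muscle list 7.93, against 9.91 to 10.67. The mean of the fat markers ran from 6.69 to 9.85 over all arrays and from 6.69 to 8.65 in the non-pregnant TiO2 group. The mean of the lymphocyte markers was also low in that group, at 6.43 to 7.60. It ran from 7.58 to 9.00 in the non-pregnant PBS group, and from 7.77 to 8.33 (PBS) and 7.60 to 8.27 (TiO2) in pregnant mice. The mean of the 10 alveolar type 1 genes lay between 11.45 and 11.78 on all 16 arrays and between 11.45 and 11.72 on the 13 arrays without those 3. Markers of the labelled tissue were bright throughout, with the surfactant gene Sftpc between 13.15 and 13.49 and the club cell gene Scgb1a1 between 13.44 and 13.55.

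**Figure D1:**
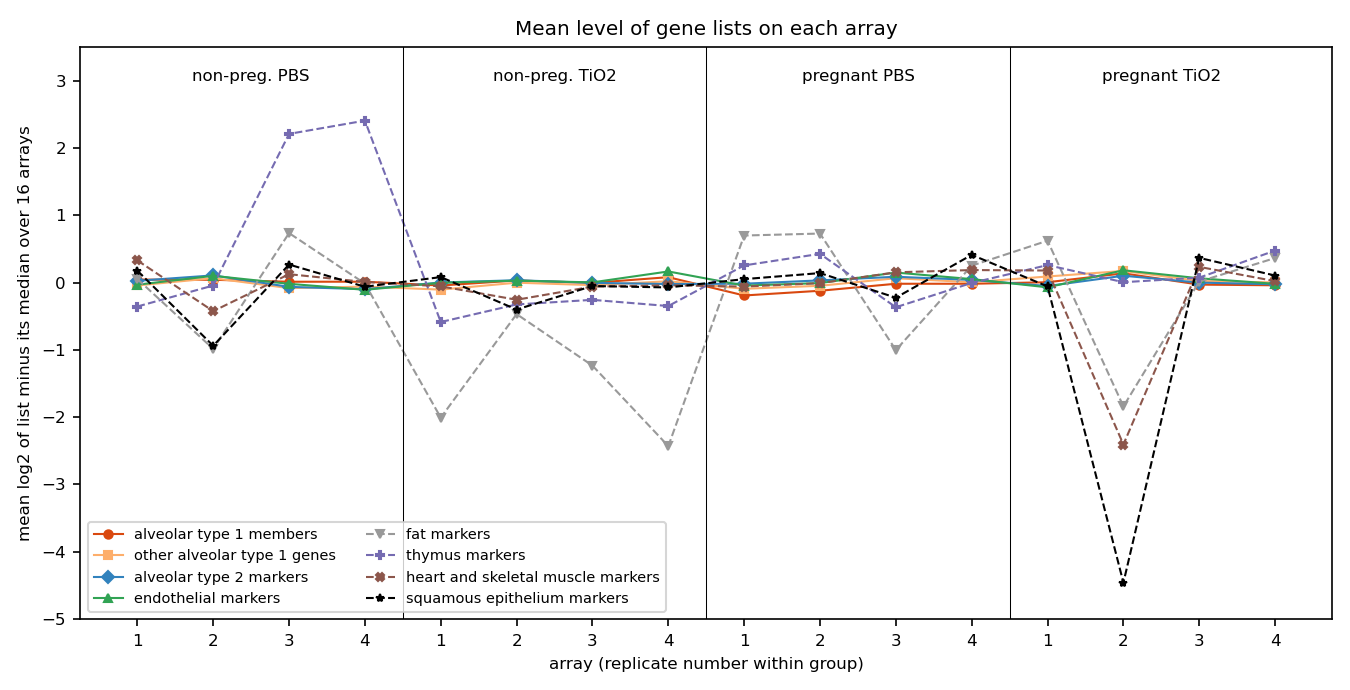
Mean log2(intensity + 16) of 8 gene lists on each of the 16 arrays, each list centred on its own median over the arrays, with the arrays ordered by group. The alveolar type 1, alveolar type 2 and endothelial lists stay near 0, while the thymus list is high in non-pregnant PBS replicates 3 and 4 and the squamous and muscle lists are low in pregnant TiO2 replicate 2.

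Several of the 10 genes were among the steadiest on the arrays. The pooled standard deviation within groups was 0.07 for Cav1 and 0.08 for Ager, and only 2.19% and 2.26% of all genes had a lower one. Both were also among the brightest, and 99.8% (Cav1) and 99.9% (Ager) of all genes had a lower mean. Cldn18 (0.09), Npnt (0.10), Clic5 (0.11), Hopx (0.12) and Akap5 (0.13) also lay below the median of all genes, which was 0.17. Rtkn2 (0.22), Pdpn (0.24) and Aqp5 (0.29) lay above it, and 86.4% of genes varied less than Aqp5. Ager sits near the top of the arrays' scale, with deposited intensities of 7478 to 10272 where the brightest probe set of an array read 10286 to 13301. A small spread of the gene, a compressed scale and the fixed values that quantile normalization gives to each rank cannot be told apart there. Because these are whole lungs, fewer type 1 cells, less RNA per cell and a change in RNA from other cell types cannot be told apart. This holds for all 10 genes, Npnt and Cldn18 included.

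**Figure D2:**
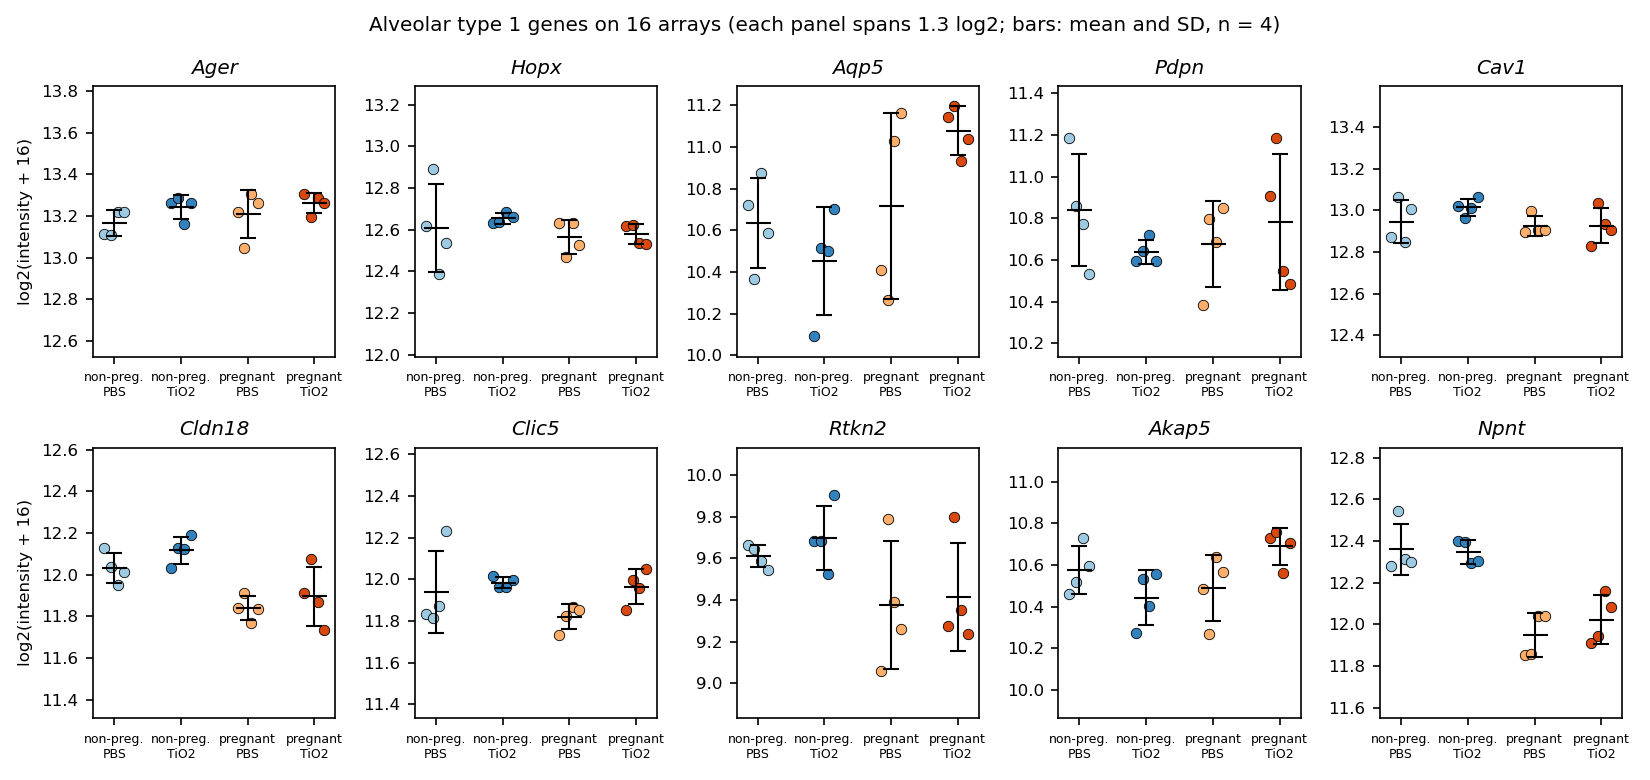
Level of each of the 10 alveolar type 1 genes as log2(intensity + 16) on each array (dots) in the 4 groups, with group mean and SD (n = 4 arrays). Each panel spans 1.3 log2 units, so steps can be compared between panels but levels cannot. The 8 pregnant arrays of Npnt, at 11.86 to 12.16, lie below all 8 non-pregnant arrays, at 12.28 to 12.54.

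The first question was whether TiO2 moved these genes in non-pregnant mice. None of the 10 passed limma's test at an adjusted p of 0.05, as was true of 0% of all 12369 genes, and 0 had an unadjusted p under 0.05, against 9.89% of all genes. In no member did the 4 TiO2 arrays separate from the 4 PBS arrays, against 5.2% of all genes. Differences ran from -0.20 for Pdpn, a mucin-like membrane glycoprotein, to 0.09 for Rtkn2, which acts inside the cell. The adjusted p-values lay between 0.670 and 0.980, and the 95% intervals of all 10 genes lay within -0.58 to 0.40. The median difference was 0.05 for the 10 genes and -0.02 for all genes.

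In pregnant mice TiO2 gave the same count. None of the 10 passed limma's test, 0% of all genes did, and 0 had an unadjusted p under 0.05, against 6.43% of all genes. No member's groups separated, against 4.22% of all genes. The differences ran from -0.00 for Cav1, the scaffold protein of caveolae, to 0.36 for Aqp5, the apical water channel. Aqp5 read 10.41, 10.27, 11.03 and 11.16 on the pregnant PBS arrays and 11.15, 11.20, 10.93 and 11.04 on the pregnant TiO2 arrays. PBS replicates 1 and 2 were low and replicates 3 and 4 were as high as the TiO2 arrays, so the groups overlap. Its difference of 0.36 ± 0.18 (SE, n = 4 against 4) had a 95% interval of -0.03 to 0.75 and an adjusted p of 0.776 in limma. Of the 10 differences 9 were above 0, with a median of 0.07 against -0.00 over all genes.

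Whether the TiO2 effect differed between pregnant and non-pregnant mice was tested directly as an interaction. None of the 10 genes passed it in limma, 0% of all genes did, and 1 of 10 had an unadjusted p under 0.05, against 10.9% of all genes. That gene was Akap5, which anchors protein kinase A and other signalling enzymes at the membrane. Akap5 read 10.46, 10.52, 10.73 and 10.60 after PBS and 10.27, 10.53, 10.41 and 10.56 after TiO2 in non-pregnant mice. In pregnant mice it read 10.49, 10.27, 10.64 and 10.57 after PBS and 10.73, 10.76, 10.56 and 10.71 after TiO2. The TiO2 arrays were on average lower in one state and higher in the other, with overlap in both. The difference of the 2 effects was 0.33 ± 0.14 (SE; limma, unadjusted p = 0.0258, adjusted p = 0.409). For Aqp5 it was larger but less precise, at 0.55 ± 0.26, with a 95% interval of -0.01 to 1.10 and an adjusted p of 0.464 in limma. Averaged over both states, TiO2 moved 0 of 10 members past limma's threshold, with 0 at an unadjusted p under 0.05 against 6.2% of all genes, and adjusted p-values of 0.920 to 0.978. In 0 of 10 did the 8 TiO2 arrays separate from the 8 PBS arrays, as was seen in 0.0162% of all genes.

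In the comparisons of pregnant with non-pregnant mice the gene with the smallest p-value was Npnt. Npnt encodes nephronectin, an extracellular matrix protein that is deposited at basement membranes and binds the integrin made of the alpha-8 and beta-1 chains. The upstream promoter stretches of Npnt and of Cldn18, the other gene that was lower in pregnancy, are shown so that the DNA before these genes' starts can be set side by side. They are the 250 bases before the annotated start, from RefSeq on GRCm38.p6, both from the minus strand and written 5′ to 3′, at chr3:132950292-132950541 for Npnt and chr9:99717268-99717517 for Cldn18. Capitals mark GGGCGG on either strand, the GC box bound by Sp1-family factors.
Npnt: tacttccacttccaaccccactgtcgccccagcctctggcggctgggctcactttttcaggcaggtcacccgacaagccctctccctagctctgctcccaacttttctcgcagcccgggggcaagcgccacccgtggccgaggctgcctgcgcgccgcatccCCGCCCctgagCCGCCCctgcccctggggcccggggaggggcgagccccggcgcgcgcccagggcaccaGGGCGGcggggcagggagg
Cldn18: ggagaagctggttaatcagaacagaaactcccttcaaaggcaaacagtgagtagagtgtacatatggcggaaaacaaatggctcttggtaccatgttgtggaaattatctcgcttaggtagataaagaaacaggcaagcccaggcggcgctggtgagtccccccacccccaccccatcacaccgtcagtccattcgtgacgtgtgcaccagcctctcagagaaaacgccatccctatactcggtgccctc
The Npnt stretch holds 3 GC boxes and the Cldn18 stretch 0. In the 300-base windows that RefSeq gives around a start (250 before to 50 after), 76.7% of the Npnt bases and 52% of the Cldn18 bases were G or C, against a median of 52.7% over 32851 windows, and 97.3% of windows were lower than that of Npnt. RefSeq gives each gene a second start, further downstream, whose window held 68% G or C and 0 GC boxes for Npnt and 55.7% and 0 for Cldn18, and the stretches shown are those of the first starts. Of the 10 genes 9 had such a window, 13 windows in all, and 6 of the 13 held the GC box, as did 35.7% of all windows. CATTCC, the motif of TEAD factors, was in 0 of 13 (14.7% of all windows), GATAAG, that of GATA factors, in 0 (7.44%), and CACTTGA, that of NKX2-1, in 1, of Hopx (3.06%). Both strands were searched, the GC box was chosen after the sequences had been seen, and a match is a description of letters, not a bound site.

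After PBS, Npnt was the 1 of 10 genes that passed limma's test, where 1.04% of all genes passed and 0.234% were lower. The non-pregnant PBS arrays read 12.28, 12.54, 12.32 and 12.30, and the pregnant PBS arrays 11.86, 11.86, 12.04 and 12.04. All 4 pregnant arrays lay below all 4 non-pregnant ones. Npnt fell by 0.41 ± 0.08 on the log2 scale (SE, n = 4 against 4; 95% interval -0.59 to -0.23; limma, adjusted p = 0.0256), which is 1.33-fold lower. That call did not survive without non-pregnant PBS replicate 2, the array with conflicting labels (-0.35, adjusted p = 0.0636), without pregnant PBS replicate 1 (-0.38, adjusted p = 0.0950) or without pregnant PBS replicate 2 (-0.38, adjusted p = 0.0972). It was also lost on the values as deposited (-0.30, adjusted p = 0.862), while all 31 alternatives kept the direction, with differences from -0.52 to -0.23 (-0.34, adjusted p = 0.173, without the 4 arrays in doubt, those of conflicting labels or unlike tissue content).

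After TiO2 the non-pregnant arrays of Npnt read 12.40, 12.40, 12.29 and 12.30 and the pregnant arrays 11.91, 11.94, 12.16 and 12.08. The groups again did not overlap. The difference of -0.33 ± 0.08 (SE, n = 4 against 4) missed the threshold in limma, with an adjusted p of 0.0626. Over both exposures, the 8 non-pregnant arrays lay at 12.28 to 12.54 (median 12.31) and the 8 pregnant arrays at 11.86 to 12.16 (median 11.99). Such a full separation of 8 from 8 was seen in 0.728% of all genes. In this averaged contrast Npnt fell by 0.37 ± 0.06 on the log2 scale (SE; 95% interval -0.50 to -0.24; limma, adjusted p = 0.00251), 1.29-fold lower. The call held without any 1 of the 16 arrays, at adjusted p-values of 0.00259 to 0.00749, and without those 4 arrays (-0.32, adjusted p = 0.0322). It was lost on the values as deposited (-0.34, adjusted p = 0.509) and with non-pregnant PBS replicate 2 counted as pregnant (-0.28, adjusted p = 0.129).

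In the same averaged contrast 2 of the 10 genes passed limma's test, both lower, where 4.42% of all genes passed, 1.23% lower and 3.19% higher. An unadjusted p under 0.05 was seen for 4 of the 10 and for 19.6% of all genes. The second was Cldn18, a claudin of the tight junctions between alveolar epithelial cells. Cldn18 read 12.13, 12.04, 11.95 and 12.01 in non-pregnant PBS mice, and 12.03, 12.13, 12.12 and 12.19 in non-pregnant TiO2 mice. In pregnant mice it read 11.84, 11.91, 11.77 and 11.83 after PBS, and 11.91, 12.07, 11.87 and 11.73 after TiO2. After PBS the groups did not overlap, as for 5.76% of all genes, but after TiO2 pregnant replicate 2, at 12.07, stood above the lowest non-pregnant array. Averaged over exposures Cldn18 fell by 0.21 ± 0.06 on the log2 scale (SE, 8 against 8 arrays; 95% interval -0.32 to -0.09; limma, adjusted p = 0.0455), 1.15-fold lower. The call was kept in 12 of 30 alternatives, and it was lost in 13 of the 16 fits that left out 1 array, with adjusted p-values of 0.0561 to 0.0881 and every difference below 0. Without pregnant TiO2 replicate 2 the difference was -0.24 (adjusted p = 0.0220), and on the values as deposited -0.18 (adjusted p = 1.00). Within one exposure it did not pass, at -0.19 ± 0.08 after PBS (adjusted p = 0.326) and -0.22 ± 0.08 after TiO2 (adjusted p = 0.140). None of 13 other junction genes passed limma's averaged contrast, and 3 had an unadjusted p under 0.05. Cgn, which encodes the junction plaque protein cingulin, read 0.25 ± 0.07 (adjusted p = 0.0551) and Cldn4, another claudin, 0.36 ± 0.11 (adjusted p = 0.0685), and 11 of the 13 were above 0.

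Aqp5, which lets water cross the apical membrane of type 1 cells, stood on the other side. In non-pregnant mice it read 10.72, 10.37, 10.88 and 10.59 after PBS and 10.09, 10.52, 10.50 and 10.70 after TiO2. After TiO2 all 4 pregnant arrays, at 10.93 to 11.20, lay above all 4 non-pregnant arrays, a separation that 4 of the 10 genes (Aqp5, Npnt, Akap5 and Hopx) and 15.7% of all genes showed. The difference was 0.63 ± 0.18 (SE, n = 4 against 4; 95% interval 0.23 to 1.02), or 1.54-fold, with an adjusted p of 0.0840 in limma. None of the 10 genes passed after TiO2, against 1.88% of all genes (1.37% higher and 0.509% lower), although 4 (Aqp5, Npnt, Akap5 and Cldn18) had an unadjusted p under 0.05, as did 20.4% of all genes. After PBS the difference of Aqp5 was 0.08, and averaged over exposures it was 0.35 ± 0.13 (adjusted p = 0.146). With array weights Aqp5 passed after TiO2 (0.59, adjusted p = 0.0279), as it did in a fit of those groups alone (adjusted p = 0.0378). Those were the only 2 of 31 alternatives in which it passed. It passed in 0 of the 16 fits that left out 1 array, at adjusted p-values of 0.0621 to 0.222 in limma. Every alternative kept the direction, with differences from 0.50 to 0.71.

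Clic5, a chloride intracellular channel protein that also links membranes to the actin cytoskeleton, differed by -0.07 in the averaged contrast. None of 19 other genes of water and ion transport passed limma's averaged contrast, and 6 had an unadjusted p under 0.05. Clic6 read 0.25 ± 0.07 (adjusted p = 0.0588) and Clic3 0.28 ± 0.08 (adjusted p = 0.0615). Of the 19, 18 were above 0 after PBS, with a median of 0.09 against 0.01 over all genes, and 14 in the averaged contrast. Cav1 was among the flattest genes, at -0.05 in the averaged contrast, with every array between 12.83 and 13.06. Its deposited intensities, 6602 to 9465, also come near the top of the scale. A flat gene, a compressed scale and the fixed values of the normalization therefore cannot be told apart here either. None of 9 genes of the caveola passed either (limma; 0 with an unadjusted p under 0.05), and 7 of the 9 were below 0. Cavin3, which encodes a caveolar coat protein, read 0.14 (adjusted p = 0.335).

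Ager encodes RAGE, a receptor that type 1 cells carry at their basal side and that binds S100 proteins and HMGB1. It read 13.04 to 13.30 over the 16 arrays, and its averaged pregnancy difference was 0.03. The list read beside it held 12 genes: its ligands, proteases linked to it, Diaph1, and Clec1b, which encodes the receptor of Pdpn. Of the 12, 4 were higher in pregnancy after PBS (0.808% of all genes were), 2 after TiO2 and 5 in the averaged contrast. The others did not pass, and 0 were lower. Clec1b is neither a ligand of RAGE nor a protease, and it was among the genes called in each of these contrasts. After PBS the neutrophil calgranulin genes S100a8 and S100a9 rose by 1.46 ± 0.21 (limma, adjusted p = 0.00241) and 1.64 ± 0.21 (adjusted p = 0.00143). The gelatinase gene Mmp9 rose by 0.58 ± 0.13 (adjusted p = 0.0361), a call kept in 15 of 31 alternatives and lost as deposited (adjusted p = 0.252), with non-pregnant PBS replicate 2 counted as pregnant (0.386) and without the 4 arrays in doubt (0.301). In the averaged contrast S100a4 rose as well, by 0.50 (adjusted p = 0.0228; kept in 26 of 30, but 0.153 without those 4 arrays). S100a8 and S100a9 are abundant in neutrophils. They are also among the 6 red cell and neutrophil markers tested, so the lists are not independent. Of these 6, 4 rose after PBS (S100a8, S100a9, Csf3r and Mmp8), 2 after TiO2 and 4 in the averaged contrast, and the mean of the 6 lay at 8.46 to 9.05 and 8.42 to 8.79 in the non-pregnant PBS and TiO2 groups, and at 9.62 to 10.05 and 9.01 to 9.38 in the pregnant ones. The part of these markers in the differences of Npnt and Cldn18 was not tested.

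Pdpn, also known as T1alpha, is the ligand of the C-type lectin receptor encoded by Clec1b. Pdpn lay between 10.38 and 11.19 and its averaged pregnancy difference was -0.01. Clec1b, which is best known from platelets and their precursors, rose by 0.83 ± 0.13 after PBS (limma, adjusted p = 0.00440) and by 1.09 after TiO2 (adjusted p = 0.00331). The call after PBS was lost with non-pregnant PBS replicate 2 counted as pregnant (0.71, adjusted p = 0.127) and without the 4 arrays in doubt (0.76, adjusted p = 0.0870), and the call after TiO2 was kept in all 31 alternatives. The ligand's gene and the receptor's gene thus had unlike values. Since Pdpn also marks lymphatic endothelium and mesothelium, 10 markers of those cells were read, and 1 passed: Krt19, a keratin gene, rose by 0.38 ± 0.08 in the averaged contrast (adjusted p = 0.0130; kept in 27 of 30 alternatives, but 0.102 without the 4 arrays in doubt). An unadjusted p under 0.05 was seen for 6 of the 10.

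Rtkn2 and Akap5 both act inside the cell, Akap5 as a kinase anchor. In non-pregnant mice Rtkn2 read 9.66, 9.64, 9.59 and 9.54 after PBS and 9.68, 9.68, 9.53 and 9.90 after TiO2. In pregnant mice it read 9.06, 9.79, 9.39 and 9.26 after PBS and 9.27, 9.80, 9.35 and 9.24 after TiO2. In each pregnant group 3 arrays lay below all non-pregnant arrays and replicate 2 did not. The averaged difference of -0.26 ± 0.10 (SE, 8 against 8 arrays) had an adjusted p of 0.172 in limma. Akap5 differed by 0.08 in that contrast and by 0.25 ± 0.10 after TiO2 (adjusted p = 0.169), where its pregnant arrays (10.56 to 10.76) did not overlap the non-pregnant ones.

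Hopx, a small homeodomain protein that lacks DNA binding of its own and marks type 1 cells, differed by -0.06 in the averaged contrast. After TiO2 its groups did not overlap, but the gap was small, with 12.63 to 12.69 in non-pregnant and 12.53 to 12.62 in pregnant mice and a difference of -0.08 ± 0.09 (adjusted p = 0.668). Of 16 genes of YAP/TAZ signalling and lung transcription factors 1 passed: Ccn1, a secreted matrix protein and YAP target, rose by 1.04 ± 0.16 after TiO2 (limma, adjusted p = 0.00881) and by 0.83 ± 0.12 in the averaged contrast. Nkx2-1, the lung lineage factor, read 0.15 there. In that contrast 7 of the 16 had an unadjusted p under 0.05, against 19.6% of all genes, and 8 lay above 0 and 8 below. After TiO2 5 of the 16 had an unadjusted p under 0.05, against 20.4% of all genes. There 7 lay above 0 and 9 below, with a median of -0.12 against 0.03 over all genes. Of 25 other genes known from type 1 cells 0 passed limma's test after PBS (1 with an unadjusted p under 0.05) and 2 were higher after TiO2. They were Igfbp2, an insulin-like growth factor binding protein (0.64 ± 0.13, adjusted p = 0.0261), and Flrt3, a membrane adhesion protein (0.53 ± 0.11, adjusted p = 0.0290). Flrt3 alone of the 25 passed the averaged contrast (0.35 ± 0.08, adjusted p = 0.0201). After TiO2 the call of Igfbp2 was kept in 26 of 31 alternatives and that of Flrt3 in 21 of 31, and both were lost as deposited (adjusted p = 0.714 and 0.927). Without the 4 arrays in doubt Flrt3 had an adjusted p of 0.0503 after TiO2 and 0.133 in the averaged contrast, and with non-pregnant PBS replicate 2 counted as pregnant 0.0636 in the latter.

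**Figure D3:**
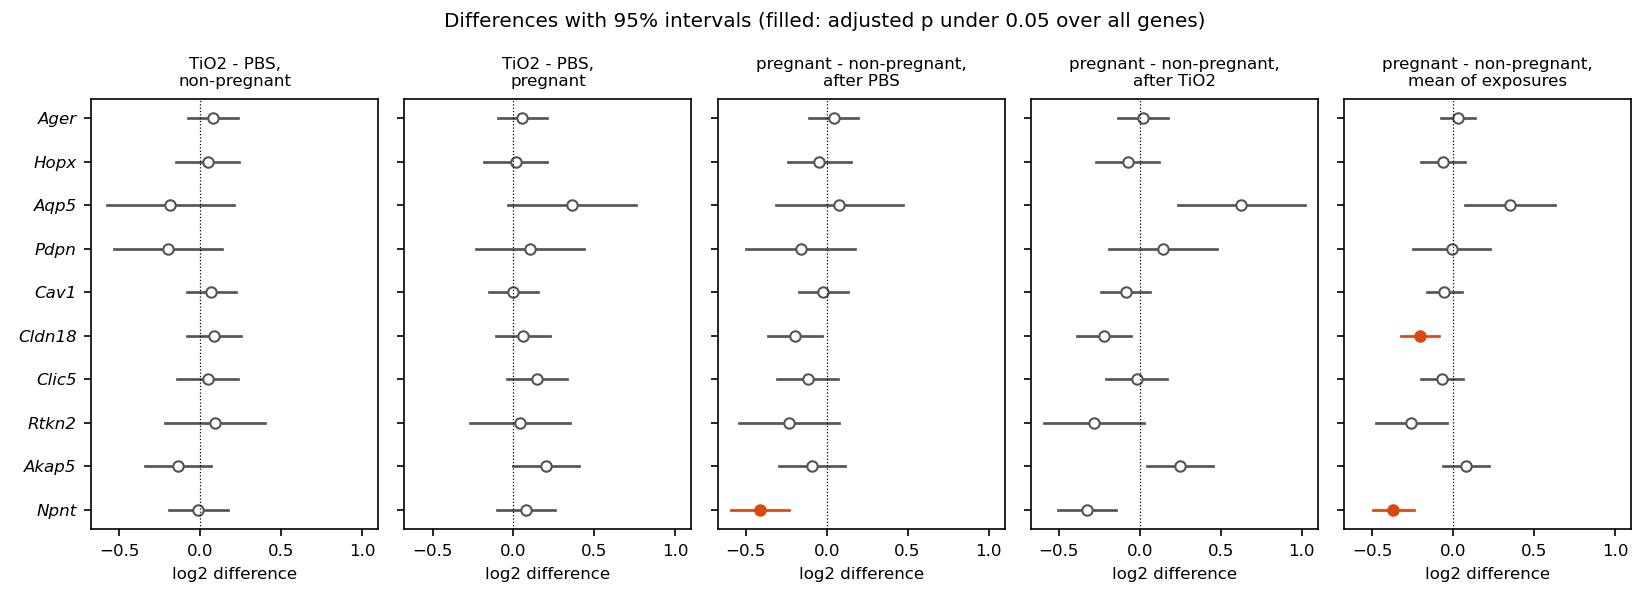
Log2 differences of the 10 genes in 5 contrasts with 95% intervals from limma; filled points have an adjusted p under 0.05. The filled points are Npnt in pregnancy after PBS (-0.41), and Npnt (-0.37) and Cldn18 (-0.21) in the average of both exposures, while no TiO2 contrast has one.

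The median of the 10 genes lay slightly below that of all genes in the pregnancy contrasts. In the averaged contrast 7 lay below 0 and 3 above, with a median of -0.06 against 0.01 over all genes. After PBS 8 lay below 0 and 2 above, with a median of -0.10 against 0.01. After TiO2 6 lay below 0 and 4 above, with a median of -0.05 against 0.03. The 10 genes were not tested as a set. Markers of other lung cells differed in what they showed. None of 13 type 2 markers passed limma's test after PBS, after TiO2 or in the average, with 0, 1 and 1 at an unadjusted p under 0.05, and the mean of that list lay between 12.07 and 12.27 on all arrays. With that mean as a covariate Npnt differed by -0.39 (adjusted p = 0.00166) and Cldn18 by -0.22 (adjusted p = 0.0311) in the averaged contrast. Of 13 endothelial markers 0 passed limma's averaged contrast (4 with an unadjusted p under 0.05) and 1, Ptprb, was lower after TiO2 (-0.37, adjusted p = 0.0276; kept in 21 of 31 alternatives). Of 12 fibroblast and smooth muscle markers 2 were higher (Tcf21 0.30, Cnn1 0.34) and 1 was lower (Mfap5 -0.30) in the averaged contrast, 7 had an unadjusted p under 0.05, and the mean of that list lay between 10.68 and 11.06. With non-pregnant PBS replicate 2 counted as pregnant, Tcf21 (adjusted p = 0.0688), Cnn1 (0.103) and Mfap5 (0.304) no longer passed. Of 9 club and ciliated cell markers 8 were above 0, with a median of 0.24 against 0.01 over all genes, 4 had an unadjusted p under 0.05, and 1 passed, the ciliated cell gene Ccdc153 (0.44 ± 0.09, adjusted p = 0.0127; 0.0530 without the 4 arrays in doubt). Only the type 2 mean was used as a covariate, and the part of the other cell types in the differences of Npnt and Cldn18 was not tested.

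Npnt was not alone among matrix and integrin genes. In a list of 16 genes of nephronectin's partners and the basement membrane, 0 passed limma's test after PBS (2 with an unadjusted p under 0.05), 3 were lower after TiO2 and the same 3 in the averaged contrast, and 14 of the 16 lay below 0 there. Itga8, the alpha-8 chain of the nephronectin receptor, averaged 12.08 ± 0.14 and 12.11 ± 0.01 (SD, n = 4) in non-pregnant mice after PBS and TiO2, and 11.86 ± 0.08 and 11.74 ± 0.09 in pregnant mice. Its 8 pregnant arrays, at 11.64 to 11.9315, only just failed to overlap its 8 non-pregnant ones, at 11.9328 to 12.27. A separation of 8 from 8 was seen in 0.728% of all genes. In the averaged contrast Itga8 fell by 0.29 ± 0.06 (limma, adjusted p = 0.00778). Itga6, a laminin-binding integrin chain, fell by 0.48 ± 0.10 (adjusted p = 0.0158), and Lamc1, the laminin gamma-1 chain, fell by 0.27 ± 0.07 (adjusted p = 0.0416). In the averaged contrast the calls of Itga8 and of Itga6 were each kept in 27 of 30 alternatives and that of Lamc1 in 13 of 30. After TiO2 they were kept in 20 (Itga8), 15 (Itga6) and 23 (Lamc1) of 31, and as deposited all 3 were lost (adjusted p = 0.815, 0.350 and 0.740). Itga8 is expressed mainly by fibroblasts and smooth muscle, so its level is not one of type 1 cells.

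Npnt and Itga8 were compared array by array within each state, because pooling would only restate the pregnancy difference. Over the 8 non-pregnant arrays r was 0.81 (exact two-sided permutation p = 0.00759, adjusted over the 2 relations 0.0152). Spearman's rank coefficient was 0.64 (exact permutation p = 0.0962), and r dropped to 0.47 without the 2 arrays farthest from the median of Npnt, so the relation rests on those arrays. Over the 8 pregnant arrays r was -0.15 (exact permutation p = 0.72) and Spearman's coefficient -0.22 (exact permutation p = 0.598).

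Other probe sets of the same genes allowed a check of the chosen ones. The 10 genes have 22 probe sets on the array, 5 of them for Npnt, 4 for Clic5 and 3 for Akap5. In a fit over 23995 single probe sets, where 2.81% passed the averaged pregnancy contrast, 2 of the 5 Npnt probe sets passed: the chosen one (-0.37 ± 0.06, adjusted p = 0.00558) and another (-0.34 ± 0.06, adjusted p = 0.0100). After PBS alone, where 0.563% of probe sets passed, the chosen one had an adjusted p of 0.0503 and none of the 5 passed. The other 3 were also below 0, at -0.57 ± 0.15, -0.52 ± 0.15 and -0.30 ± 0.19. The last of these differed by -0.62 after PBS and by 0.02 after TiO2, so it did not repeat the drop after TiO2. Both Cldn18 probe sets were below 0 and neither passed in this fit, at -0.21 ± 0.06 (adjusted p = 0.0735) for the chosen one and -0.75 ± 0.29 (adjusted p = 0.200) for the other, whose values spread from 8.90 to 11.30.

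For Clic5 the probe sets did not read alike. After TiO2 the chosen one differed by -0.02 between pregnant and non-pregnant mice, while the other 3 held a pair that read lower: at -0.75 ± 0.31 (adjusted p = 0.229) and -0.50 ± 0.19 (adjusted p = 0.197) these each separated the groups without passing limma's test. The 3 probe sets of Akap5 gave 0.08, -0.12 and 0.17 in the averaged contrast. Those of Ager gave 0.03 and 0.00 and those of Hopx -0.06 and -0.08.

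**Figure D4:**
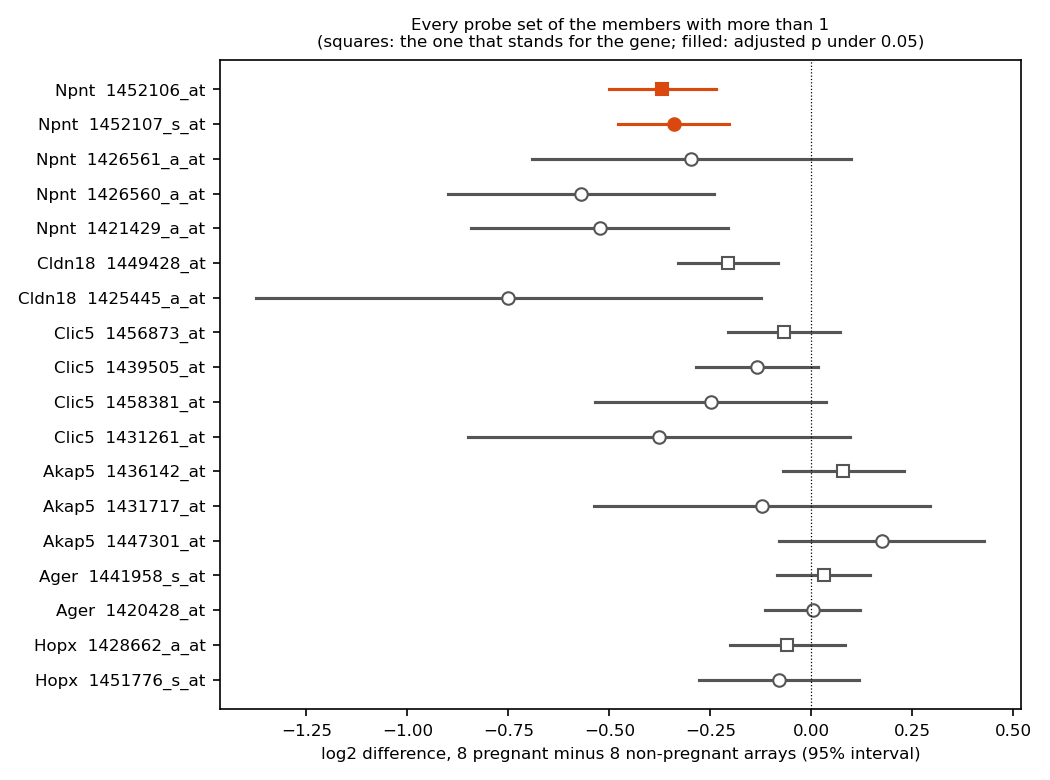
Pregnant minus non-pregnant difference (log2, mean of both exposures, with 95% interval) for the 18 probe sets of the 6 genes that have more than 1; squares are the probe sets with the highest mean, and filled symbols passed limma's test over 23995 probe sets. All 5 Npnt probe sets lie below 0 and 2 of them are filled.

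The 10 genes did not move as one unit across arrays. Of their 45 pairs, 25 had a Pearson r above 0 and 20 below, with a median of 0.14 and a range from -0.49 (Aqp5 and Cav1) to 0.84. After adjustment over the 45 pairs, 2 passed by both Pearson's r and Spearman's coefficient. Aqp5 and Akap5 gave r = 0.84 over the 16 arrays (permutation p = 4e-05, adjusted 0.0018) and a Spearman coefficient of 0.84 (adjusted 0.0063). The r was 0.75 without the 2 arrays farthest from the median of Aqp5, and 0.80 once each group's mean was removed. Cldn18 and Rtkn2 gave r = 0.77 (permutation p = 0.00067, adjusted 0.0151) and a Spearman coefficient of 0.74 (adjusted 0.0299), and 0.75 and 0.63 in those checks. The permutations shuffled all 16 arrays across the groups, so the p-values of both pairs also take in differences between groups. No p-value was computed for r with group means removed. The pair that was lower in pregnancy, Cldn18 and Npnt, gave r = 0.58 (adjusted 0.232), and -0.46 once group means were removed.

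**Figure D5:**
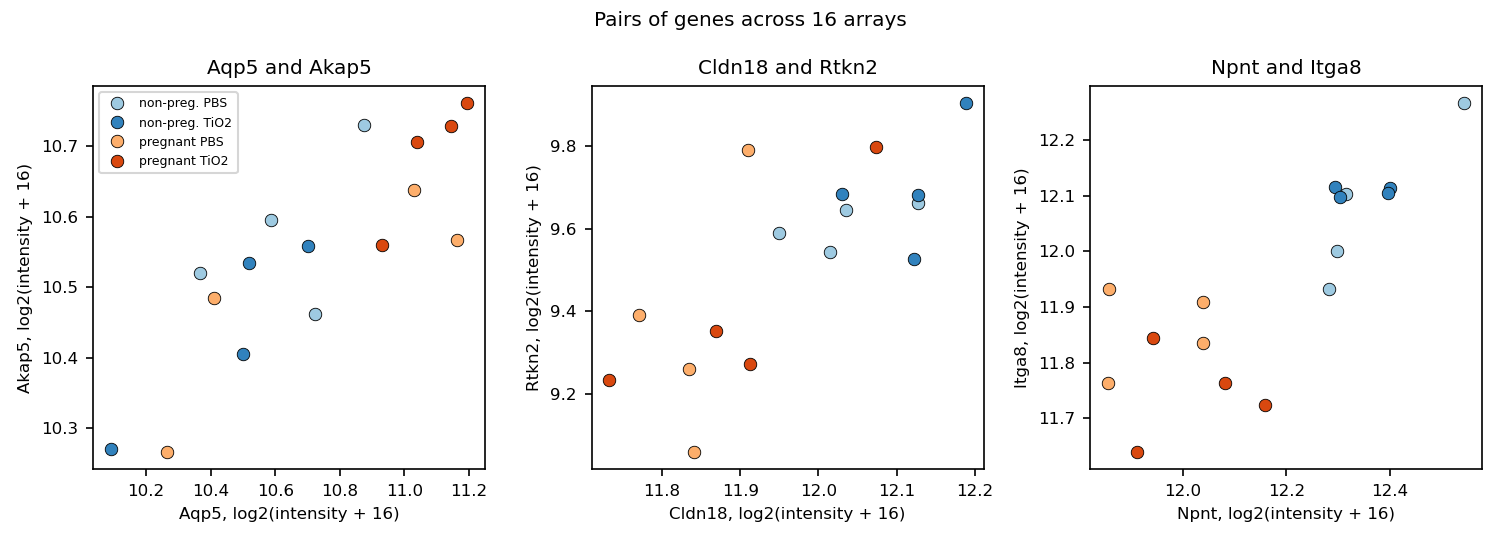
Scatter of log2(intensity + 16) on the 16 arrays for Aqp5 against Akap5, Cldn18 against Rtkn2 and Npnt against Itga8, coloured by group. The first 2 pairs follow a common line across groups (r = 0.84 and 0.77). Npnt and Itga8 fall into a pregnant and a non-pregnant cloud, which nearly touch along Itga8.

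Among all genes tested, those whose levels over the 16 arrays were most like the mean of the 10 were Alcam (r = 0.84), Nudt16 (0.83), Tcf20 (0.81), Adh1 (0.81), Bace1 (0.81) and Susd4 (0.80). Most like a single member were Tk1 for Aqp5 (0.93), Ids for Cav1 (0.91), Ten1 for Akap5 (0.91), Abi3bp for Npnt (0.90), Aplp2 for Cldn18 (0.89) and Pfdn2 for Rtkn2 (0.89). For Hopx it was Tbc1d32 (0.87), for Ager Psmg2 (0.85), for Pdpn Gab3 (0.84) and for Clic5 Ect2 (0.83). These are the highest of 12369 values each and are given as a description, over arrays that share groups, tissue content and brightness.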

How the data were processed

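Samples were grouped by source name and gestation, as labelled. Replicate numbers only give the order of the samples. The labels do not state that each sample is a separate mouse, so p-values measure the spread between these samples, which may be technical. The authors deposited 1 linear intensity per probe set and array. GCOS, MAS5 and RMA are named, per the submitters' processing notes, and which of them made these values is not given in the sources used here. Deposited intensity values were not at a common level, and the median of an array ran from 32.0 to 56.5. Of 45101 probe sets, 64 controls were left out and the rest quantile-normalized, and log2(value + 16) was taken, which understates the change of dim probe sets. The filter required a signal above the array median on 4 or more of the 16 arrays (23995 probe sets kept). Symbols came from the platform annotation, updated by Entrez identifier to RefSeq (GRCm38.p6; 34741 of 34945 single-symbol probe sets matched), and the brightest probe set stood for each of 12369 genes.

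One limma 3.58.1 fit (R 4.3.3) of 4 group means with 12 residual degrees of freedom gave 7 contrasts, with Benjamini-Hochberg adjustment over all genes within each and a threshold of 0.05. It was tested on simulated data. Correlations used two-sided permutation tests with 100000 resamples, or exact ones for 8 arrays. The 10 genes and 19 other lists (228 of 265 entries tested) were chosen with earlier results of these data known. Named genes are the 10 members, the called genes of a list (the 2 of smallest p where none was called), the most alike genes and tissue markers, of which examples are printed. Alternatives covered normalization, pseudocount, filter, probe set choice, weights, covariates, groups in the fit and each array left out.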

Additional observations from a re-analysis of the deposited data

Results flagged for a closer look

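Each gene was checked in each group for a single array far from the other 3, by its gap to the nearest array over the group's range. Of 40 such groups 4 were past the limit, where chance gives about 5% of groups. Npnt read 12.54 in non-pregnant PBS replicate 2, the array with conflicting labels, and the nearest array read 12.32 (gap over range 0.871). This array is the highest of all 16 for Npnt, so it lies on the far side from the pregnant arrays. Clic5 read 12.23 in non-pregnant PBS replicate 4, one of the arrays high in thymus markers, and the nearest read 11.87 (0.858). Cav1 read 13.00 in pregnant PBS replicate 2, and the nearest read 12.90 (0.92). Ager read 13.16 in non-pregnant TiO2 replicate 3, and the nearest read 13.26 (0.831). As deposited, replicates 1 to 4 of that group read 9822, 9946, 9621 and 10270. Replicate 3 was also lowest there but stood less far apart, so this flag rests on the normalized values.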

How the results depend on the processing

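No paired analysis was possible because the labels carry no replicate numbers. No called result changed direction under the 31 alternatives, 16 of which left out 1 array each, and TiO2 and its interaction gave 0 called members in every one that could be run (a fit of only the groups compared does not apply to the interaction or to averaged contrasts). After PBS the count of members called (1) was 0 on the values as deposited, with no filter, with the mean of a gene's probe sets, with only the groups compared, with non-pregnant PBS replicate 2 counted as pregnant, and (chosen after seeing the data) without the 4 arrays in doubt, which leaves 1 non-pregnant PBS array that is assumed to vary like the others. It was 0 to 1 with single arrays left out. After TiO2 the count (0) was 1 with a pseudocount of 64, with a robust trended prior, with only the groups compared and with the type 2 list as covariate, 3 with array weights (Aqp5, Cldn18 and Npnt), and 0 to 1 with single arrays left out. In the averaged contrast the count (2) was 0 as deposited and with replicate 2 counted as pregnant, 1 with trimmed-mean scaling, no filter and the mean of probe sets, and 1 to 2 with single arrays left out. Over all genes, 129, 233 and 547 were called (after PBS, after TiO2, averaged), against 38, 21 and 102 as deposited, 133, 1505 and 935 with array weights, 92, 141 and 419 with no filter, and 294, 450 and 1098 without the 3 arrays of unlike tissue. As deposited the median of all genes shifted by 0.16 after PBS and by -0.08 after TiO2, and 84.2% and 34.6% of genes lay above 0, so 7 and 3 members did. Array signals near the top of the scale (Ager) limit what can be seen.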
